A study of Mus musculus with 6 samples.

Results

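The genes of glycolysis, the pentose phosphate pathway and pyruvate handling were examined in adipocytes of inguinal subcutaneous white adipose tissue (scWAT) of mice with or without adipocyte deletion of the Hippo pathway kinases *Lats1* and *Lats2*. The set held 37 genes, chosen by symbol for their place in these pathways, and all 37 were found among the 37384 gene symbols of the count table. Of the table, 15674 genes had enough counts to be tested, the 37 among them. The control group was L1L2-FF (genotype Lats1f/fLats2f/f), with floxed *Lats1* and *Lats2* alleles and no Cre, and the other was L1L2-AKO (Lats1f/fLats2f/fAdipoqCre), with the same floxed alleles and Cre driven by the *Adipoq* promoter, which is active in adipocytes of white and brown fat and, by the study's account, in some adipocyte precursors of fetal scWAT. The study reports lower *Lats1* and *Lats2* mRNA in scWAT and brown fat of L1L2-AKO mice, but not in non-adipose tissues. With a Cre reporter, it describes this Cre as acting in mature adipocytes and not in precursors of scWAT after birth. Which cells within a library carried the deletion was not measured. There were 3 libraries per genotype, each made from the adipocytes of 4 pooled male mice at postnatal day 7, collected by collagenase digestion and flotation with no sort. A p-value therefore sets the difference between genotypes against the spread between pools, and the spread between single mice was not measured. Any other cell that floated with the adipocytes also gave RNA to a library.

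The total count per library ranged from 30548473 to 32107917. As a check of the labels, *Lats1* was at 76.1, 94.3 and 78.4 CPM (counts scaled to a common library size with the TMM factors of edgeR) in L1L2-FF replicates 1 to 3, but at 38.9, 41.2 and 40.5 CPM in L1L2-AKO replicates 1 to 3, whereas *Lats2* was at 74.9, 85.7 and 68.5 CPM in L1L2-FF and higher, at 96.2, 126 and 135 CPM, in L1L2-AKO. The study measured both mRNAs in scWAT adipocytes isolated at the same age and reports each as reduced in L1L2-AKO. In the counts *Lats2* went against the label, and a count for a whole gene cannot show the loss of its floxed part. The group is therefore described below as libraries labelled L1L2-AKO, and its replicates are named by their labels. Markers of mature adipocytes were abundant in every library, with a summed level of the 14 markers of 39333 to 50619 CPM in L1L2-FF and 22528 to 28487 CPM in libraries labelled L1L2-AKO. In the test described below 6 of the 14 fell, where 7.18% of all tested genes did. The most abundant, *Car3*, went from a mean of 17467 CPM in L1L2-FF to 6896 CPM. *Fabp4*, at means of 8164 and 6610 CPM, overlapped between the genotypes. The 15 macrophage markers summed to 310 to 600 CPM in L1L2-FF and to 1131 to 1248 CPM in libraries labelled L1L2-AKO. In the test described below 14 of the 15 rose, where 9.28% of all tested genes did. Skeletal muscle, a tissue rich in glycolytic enzymes, gave a sum of 16 markers of 9.96 to 25.9 CPM over the 6 libraries.

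Glycolysis splits glucose into pyruvate in the cytosol, with gains of ATP and NADH. Its flow is set largely by glucose entry, by the hexokinases and by phosphofructokinase, which is switched on by a sugar bisphosphate that the bifunctional PFKFB enzymes make and break down. The oxidative branch of the pentose phosphate pathway draws off glucose phosphate to make NADPH, and the other branch interconverts sugars of different length. Pyruvate is either reduced to lactate and exported or carried into mitochondria, where the pyruvate dehydrogenase complex turns it into acetyl-CoA, its kinases (PDKs) shut that complex down, and pyruvate carboxylase turns pyruvate into oxaloacetate. White adipocytes use these routes to supply acetyl units, NADPH and glycerol phosphate for fat synthesis.

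The proximal promoters of 4 genes are shown because *Hk2*, *Pfkm* and *Pdk2* were the genes of the set that passed the test under every setting used here, and *G6pdx* was the gene whose level was higher in all libraries labelled L1L2-AKO. The sequences are from RefSeq (GRCm38.p6), 300 bases each, from 250 bases before to 50 bases from the annotated start, on the strand of the gene. Capitals mark the letters ACGTG on either strand, the core of the hypoxia response element, which is also contained in CACGTG, the E-box letters bound by MYC and ChREBP, and GGAATG, the letters of the TEAD motif on either strand. None of the 4 printed windows held GGAATG, and the other window of *Pdk2*, not printed, did.
Hk2 (chr6:82774405-82774704, minus strand): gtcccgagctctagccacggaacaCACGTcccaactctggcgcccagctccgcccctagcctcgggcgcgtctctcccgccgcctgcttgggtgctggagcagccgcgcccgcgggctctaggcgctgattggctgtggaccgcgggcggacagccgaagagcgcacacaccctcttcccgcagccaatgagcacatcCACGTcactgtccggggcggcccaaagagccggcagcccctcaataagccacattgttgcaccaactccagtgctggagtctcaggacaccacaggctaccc
Pfkm (chr15:98092339-98092638, plus strand): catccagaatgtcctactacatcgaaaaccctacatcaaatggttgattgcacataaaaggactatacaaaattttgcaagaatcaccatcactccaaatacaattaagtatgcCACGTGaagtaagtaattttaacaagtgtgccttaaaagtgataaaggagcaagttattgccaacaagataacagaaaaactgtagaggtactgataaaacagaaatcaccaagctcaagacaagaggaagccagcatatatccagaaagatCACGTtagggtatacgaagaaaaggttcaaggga
Pdk2 (chr11:95041322-95041621, minus strand): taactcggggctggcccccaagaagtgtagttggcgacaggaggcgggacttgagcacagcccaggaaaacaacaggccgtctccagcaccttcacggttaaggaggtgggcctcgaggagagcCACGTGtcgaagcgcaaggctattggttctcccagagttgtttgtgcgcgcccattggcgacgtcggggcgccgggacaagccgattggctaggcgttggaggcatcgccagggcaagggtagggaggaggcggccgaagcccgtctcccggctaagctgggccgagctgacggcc
G6pdx (chrX:74428831-74429130, minus strand): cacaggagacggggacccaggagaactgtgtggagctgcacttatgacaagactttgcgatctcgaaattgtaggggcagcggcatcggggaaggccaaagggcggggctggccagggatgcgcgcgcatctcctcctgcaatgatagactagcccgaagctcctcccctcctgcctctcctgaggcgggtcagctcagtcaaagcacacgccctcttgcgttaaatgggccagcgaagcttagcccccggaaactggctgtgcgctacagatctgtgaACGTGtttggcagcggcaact
The *Hk2* window held 2 copies of ACGTG and the *G6pdx* window 1, while the windows of *Pfkm* and *Pdk2* each held 1 CACGTG. *Pfkm* has 4 annotated windows and *Pdk2* has 2, and the printed ones are those with CACGTG. All 37 genes matched at least 1 window, 57 in total. ACGTG was found in 36.8% of these 57 windows, for 18 genes, and in 19.6% of all 32851 windows of the same length. CACGTG was found in 10.5% of the windows of the set, for 6 genes, and in 7.15% of all. GGAATG was found in 12.3% against 14.7%. The median GC content of the windows was 61.0% for the set and 52.7% for all, and its part in the motif shares was not tested.

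Every gene of the set past the threshold of the main edgeR test was lower with the deletion label. In the quasi-likelihood test of edgeR (two-sided, Benjamini-Hochberg adjustment over all tested genes, threshold 0.05), 9 of the 37 fell in libraries labelled L1L2-AKO, none rose and 28 did not pass. That is 24.3% of the set lower, where 7.18% of all tested genes were lower and 9.28% higher. The 9 genes were *Hk2* at glucose phosphorylation, *Pfkm*, *Pfkfb1* and *Pfkfb3* at the phosphofructokinase step, and *Mpc1*, *Mpc2*, *Pdhb*, *Pdk1* and *Pdk2* in mitochondrial pyruvate handling. The triose phosphate steps (7 genes), lactate (4 genes) and the pentose phosphate pathway (6 genes) had no gene past the edgeR threshold. At an unadjusted p under 0.05 they had 0, 1 and 3, limma-voom called none of them, and DESeq2's Wald test called 3, all in the pentose phosphate pathway. Of genes that were higher, 1 had an unadjusted p under 0.05, and DESeq2 called 1 and limma-voom 0. The fitted log2 fold change was negative for 28 genes and positive for 9, with a median of -0.34, where the median over all tested genes was -0.02. The levels of 11 genes (29.7%) were lower in all 3 libraries labelled L1L2-AKO than in any control library, against 18.4% of all tested genes, and 1 gene was higher in that sense, against 18.0%. In these bulk libraries, fewer adipocytes and less RNA per adipocyte cannot be told apart. The lower adipocyte and higher macrophage marker sums given above move with the genotype, and their part in each result below was not tested.

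**Figure D1:**
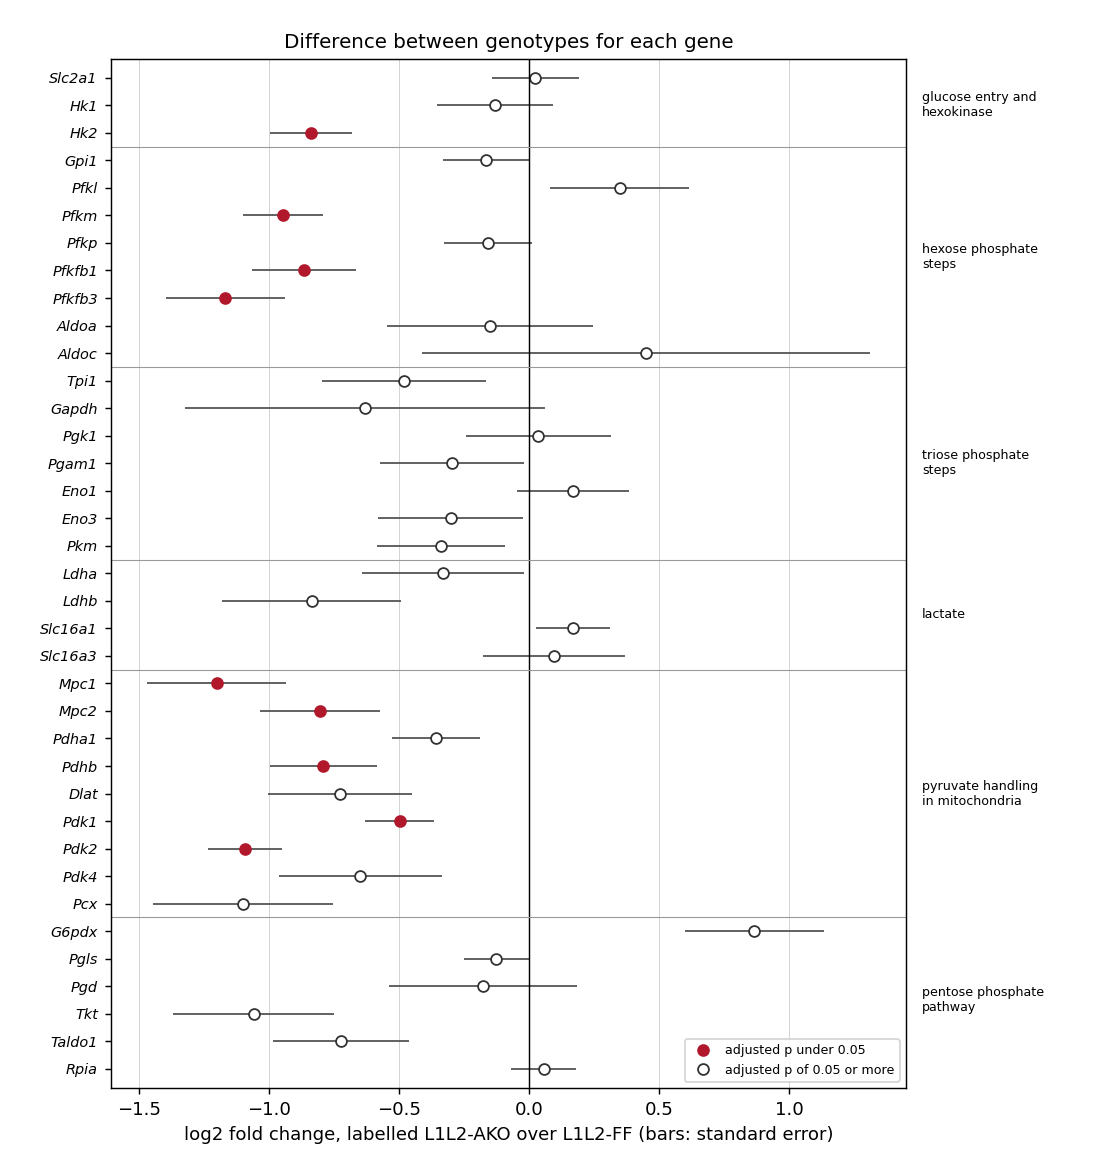
Log2 fold change of each of the 37 genes (libraries labelled L1L2-AKO over L1L2-FF, x axis), with its standard error as a bar and the genes grouped by step. Filled red points passed the edgeR threshold of 0.05: all 9 lie left of 0, between -1.20 and -0.50, and 5 of them belong to pyruvate handling in mitochondria.

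Of the 3 genes of glucose entry and phosphorylation, *Hk2* fell. *Hk2* encodes the insulin-responsive hexokinase of fat and muscle (chr6:82725025-82774454, minus strand, mm10, GENCODE M21). It was at 102, 105 and 134 CPM in L1L2-FF replicates 1 to 3, but at 65.0, 53.7 and 71.9 CPM in libraries labelled L1L2-AKO, so the genotypes did not overlap. Its log2 fold change was -0.84 (standard error 0.156, adjusted p = 0.00964). The ubiquitous hexokinase gene *Hk1* was at 34.0 to 41.7 CPM in L1L2-FF and at 22.5 to 43.3 CPM in libraries labelled L1L2-AKO (log2 fold change -0.13, adjusted p = 0.744). *Slc2a1*, which encodes the basal glucose transporter GLUT1, was at 14.1 to 19.2 CPM and 14.4 to 18.9 CPM (log2 fold change 0.02, adjusted p = 0.947). For both genes the ranges of the genotypes overlapped throughout. Scaled by exon length, *Hk2* made up 81.2 ± 3.17% (SD, n = 3 libraries) of the sum of *Hk1* and *Hk2* in L1L2-FF, against 72.8 ± 8.05% (SD, n = 3) for libraries labelled L1L2-AKO, with overlapping libraries.

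Of the 8 genes of the hexose phosphate steps, 3 fell (37.5%, with 7.18% of all tested genes lower), and all 3 act at phosphofructokinase. *Pfkfb3*, whose product is strongly tilted towards making the activator of phosphofructokinase, was at 554, 524 and 596 CPM in L1L2-FF and at 181, 223 and 340.4 CPM in libraries labelled L1L2-AKO. The highest of the latter stayed below the lowest L1L2-FF library, and the log2 fold change was -1.17 (standard error 0.229, adjusted p = 0.012). *Pfkfb1*, best known as the liver and muscle form of the enzyme, was at 75.3, 63.3 and 95.6 CPM and at 49.2, 32.9 and 46.4 CPM (log2 fold change -0.87, standard error 0.199, adjusted p = 0.0226). Neither gene's libraries overlapped between genotypes.

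*Pfkm*, the muscle isoform of phosphofructokinase (chr15:98092589-98132451, plus strand), was at 28.0, 29.9 and 31.4 CPM in L1L2-FF and at 17.8, 16.0 and 12.5 CPM in libraries labelled L1L2-AKO (log2 fold change -0.95, standard error 0.153, adjusted p = 0.00551). Transcripts of another gene hold 8.83% of its 50-base stretches. The liver isoform gene *Pfkl* was at 132 to 286 CPM and 214 to 302 CPM (log2 fold change 0.35, adjusted p = 0.435), and the platelet isoform gene *Pfkp* at 48.3 to 63.4 CPM and 45.6 to 63.8 CPM (log2 fold change -0.16, adjusted p = 0.591). The shares of *Pfkm* and *Pfkl* among phosphofructokinase transcripts did not overlap between the genotypes, whereas that of *Pfkp* did. Scaled by exon length, *Pfkm* made up 19.4%, 27.6% and 16.5% of the 3 isoforms in L1L2-FF replicates 1 to 3, against 9.63%, 11.9% and 7.79% in libraries labelled L1L2-AKO. The share of *Pfkl* was 69.7%, 61.3% and 75.2% in L1L2-FF and 81.8%, 79.4% and 85.1% in libraries labelled L1L2-AKO. The share of *Pfkp* was 10.9%, 11.1% and 8.30%, against 8.60%, 8.73% and 7.11%. Shares were given no test, and 1 isoform's share must rise when another's falls.

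The other hexose phosphate genes did not pass. *Aldoa*, the main aldolase gene of the tissue, was the most abundant gene of the set per length, at a mean of 1343 TPM (a length-scaled level, from the counts and the summed length of the annotated exons of a gene) in L1L2-FF and 1313 TPM in libraries labelled L1L2-AKO. Its CPM ran from 612 to 2111 in L1L2-FF and from 976 to 1479 in libraries labelled L1L2-AKO (log2 fold change -0.15, adjusted p = 0.841). *Gpi1*, glucose phosphate isomerase, was at 234 to 345 CPM and 235 to 276 CPM (log2 fold change -0.17, adjusted p = 0.554). *Aldoc*, the aldolase of brain, was at 1.10 CPM or less in all 6 libraries.

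**Figure D2:**
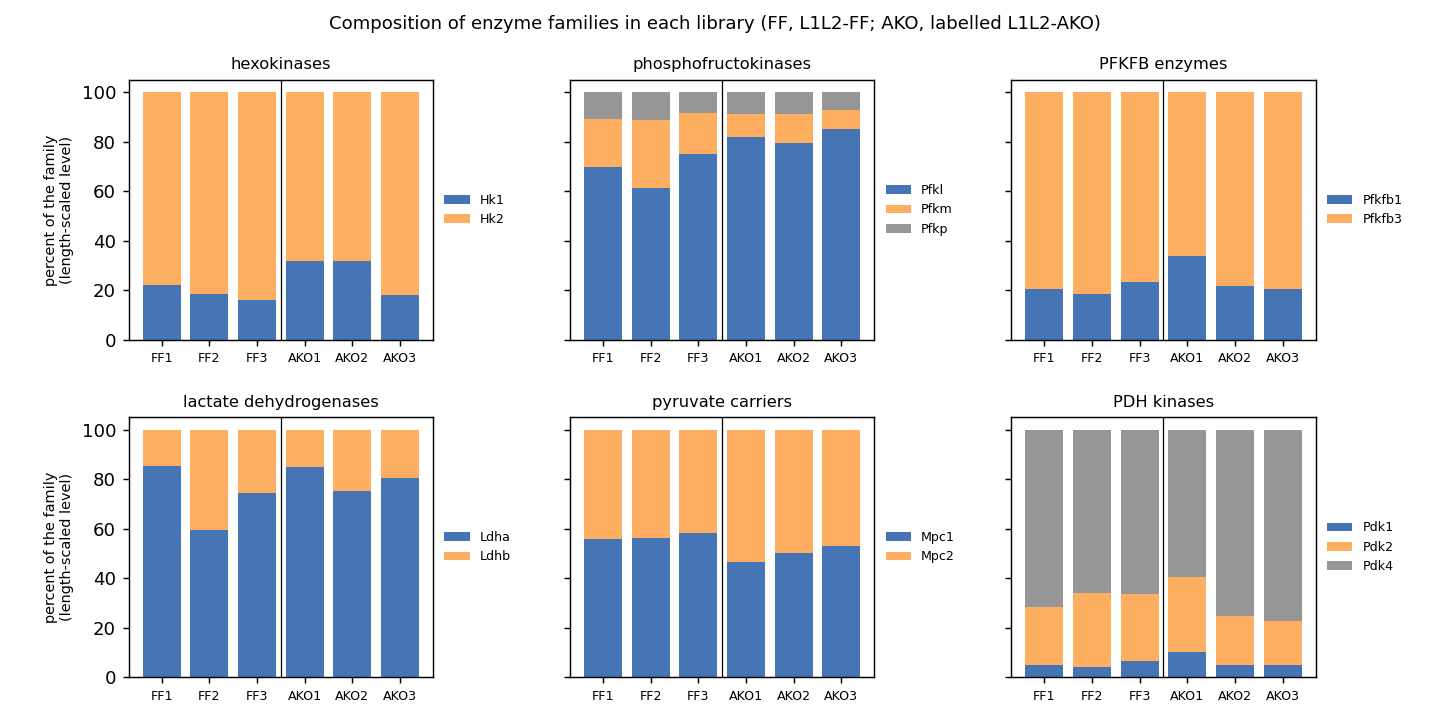
Share of each gene in the length-scaled level of its enzyme family (y axis, percent) in each of the 6 libraries (x axis), for 6 families. The *Pfkm* share lay between 16.5% and 27.6% in L1L2-FF and between 7.79% and 11.9% in libraries labelled L1L2-AKO, while the hexokinase, PFKFB, lactate dehydrogenase and PDK shares overlapped between genotypes. The pyruvate carrier shares count the *Mpc1* row without its pseudogene row *Mpc1-ps*.

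None of the 7 genes of the triose phosphate steps, from triose phosphate to pyruvate, passed the test, and the libraries of the genotypes overlapped for all 7. *Tpi1*, triose phosphate isomerase, was at 555, 278 and 727 CPM in L1L2-FF and at 416, 312 and 388 CPM in libraries labelled L1L2-AKO (log2 fold change -0.48, adjusted p = 0.353). *Pkm*, the pyruvate kinase of most tissues, was at 367, 237 and 465 CPM and at 337, 263 and 246 CPM (log2 fold change -0.34, adjusted p = 0.408). In both genes L1L2-FF replicate 2 was the lowest of the 6 libraries. *Pgk1*, phosphoglycerate kinase, *Pgam1*, phosphoglycerate mutase, and *Eno1*, the widespread enolase, had log2 fold changes of 0.04, -0.30 and 0.17. *Eno3*, the muscle enolase, was at 4.49 to 8.87 CPM over the 6 libraries (log2 fold change -0.30, adjusted p = 0.519).

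*Gapdh* counts need care. The row held 1475, 252 and 535 counts in L1L2-FF and 980, 282 and 226 counts in libraries labelled L1L2-AKO, 3750 in all, far below its neighbours in the pathway. The table has 27 further rows, mostly annotated as processed pseudogenes, for which at least 50% of the 50-base stretches occur in *Gapdh* transcripts. Together these rows held 40499 counts, 10.8 times as many. The log2 fold change of *Gapdh* was -0.63 (adjusted p = 0.598) alone and -0.10 (adjusted p = 0.887) with those rows added, and neither passed the test. *Pgk1* shares 53.9% of its 50-base stretches with other genes and *Pgam1* 36.2%, but the rows that share with them held 1966 and 2495 counts beside 39850 and 28749 of their own.

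None of the 4 genes of lactate metabolism passed. *Ldha*, whose enzyme favours lactate formation, was at 935, 504 and 1321 CPM in L1L2-FF and at 783, 647 and 761 CPM in libraries labelled L1L2-AKO (log2 fold change -0.33, adjusted p = 0.529). *Ldhb*, whose enzyme favours the reverse reaction, was at 74.9, 163 and 214 CPM and at 65.0, 100.4 and 87.2 CPM (log2 fold change -0.84, adjusted p = 0.143). L1L2-FF replicate 1 lay within the range of libraries labelled L1L2-AKO for *Ldhb*, and without it the gene fell. *Slc16a1*, the lactate transporter MCT1, was at 106 to 149 CPM and 137 to 145 CPM (log2 fold change 0.17, adjusted p = 0.485). *Slc16a3*, the transporter MCT4 of strongly glycolytic cells, was at 3.80 CPM or less throughout, and *Slc16a1* made up 97.4% to 98.8% of the length-scaled sum of both in every library.

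**Figure D3:**
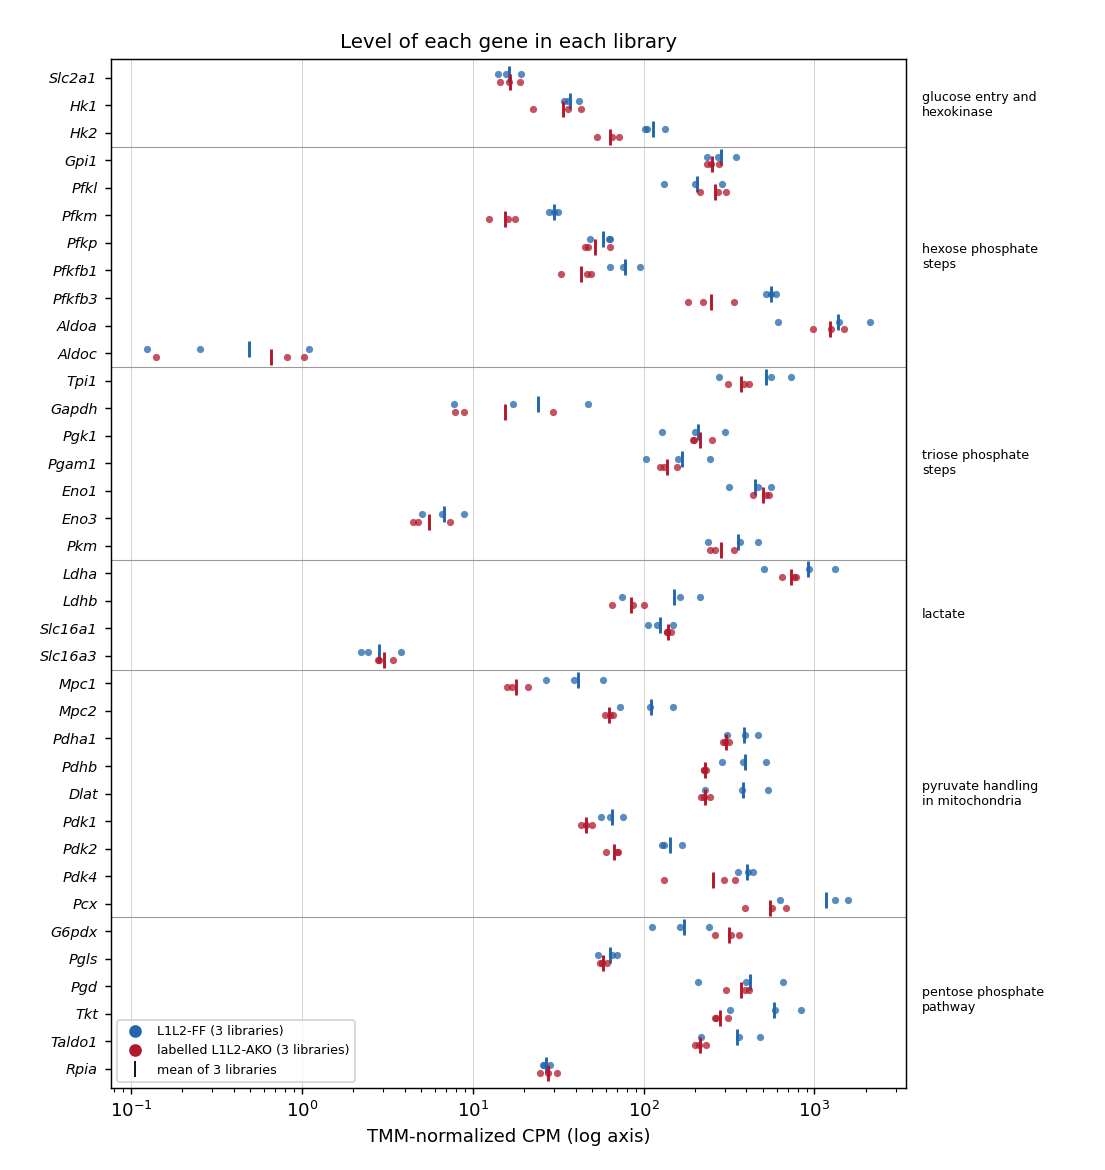
TMM-normalized CPM (x axis, log scale) of each gene in the 3 L1L2-FF libraries (blue) and the 3 libraries labelled L1L2-AKO (red), with short vertical bars for the means. The colours separate for 12 genes: *Hk2*, *Pfkm*, *Pfkfb1*, *Pfkfb3*, *Mpc1*, *Mpc2*, *Pdhb*, *Pdk1*, *Pdk2*, *Pdk4* and *Tkt* are lower and *G6pdx* is higher in libraries labelled L1L2-AKO.

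Pyruvate handling in mitochondria held the most falls. All 9 genes had a negative log2 fold change, with a median of -0.79, 5 of the 9 passed the test (55.6% of the group, with 7.18% of all tested genes lower), and 6 were lower without overlap between genotypes, as were 18.4% of all tested genes. Both genes of the mitochondrial pyruvate carrier fell. *Mpc1* was at 39.2, 26.7 and 58.2 CPM in L1L2-FF and at 15.8, 16.9 and 21.2 CPM in libraries labelled L1L2-AKO, each below the lowest L1L2-FF library (log2 fold change -1.20, standard error 0.269, adjusted p = 0.0202). *Mpc2* was at 109, 72.7 and 148 CPM and at 63.8, 59.1 and 66.0 CPM (log2 fold change -0.81, standard error 0.231, adjusted p = 0.0497), just inside the threshold. Per length, *Mpc1* made up 55.8%, 56.4% and 58.1% of the carrier transcripts in L1L2-FF and 46.6%, 50.2% and 53.1% in libraries labelled L1L2-AKO.

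The *Mpc1* row is only part of the reads of that sequence. The pseudogene row *Mpc1-ps* held 3313, 1926 and 4421 counts in L1L2-FF and 1318, 1284 and 1252 counts in libraries labelled L1L2-AKO, 2.43 times the total of *Mpc1*. Reads from the gene and from its copy cannot be told apart in this table. The carrier shares given above count the *Mpc1* row alone, and shares with *Mpc1-ps* added were not computed. With both rows added, the log2 fold change was -1.28 (adjusted p = 0.0163), so the fall was present either way.

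The pyruvate dehydrogenase genes were all lower on average, and 1 of the 3 passed. *Pdhb*, the beta subunit of the decarboxylating component, was at 379.9, 287 and 517 CPM in L1L2-FF and at 225, 232 and 226 CPM in libraries labelled L1L2-AKO (log2 fold change -0.79, standard error 0.206, adjusted p = 0.0357). The latter libraries differed from each other by 1.03 times at most, the L1L2-FF libraries by 1.80 times. *Pdha1*, its alpha subunit, was at 307 to 469.8 CPM and 293 to 315 CPM (log2 fold change -0.36, adjusted p = 0.194), and *Dlat*, the acetyltransferase of the complex, at 228 to 538 CPM and 216 to 246 CPM (log2 fold change -0.73, adjusted p = 0.114).

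Among the kinases that inactivate the complex, *Pdk2* and *Pdk1* fell. *Pdk2*, the widely expressed kinase (chr11:95026258-95041354, minus strand), was at 128, 169 and 132 CPM in L1L2-FF and at 60.2, 70.3 and 70.7 CPM in libraries labelled L1L2-AKO, the smallest adjusted p-value of the set (log2 fold change -1.09, standard error 0.142, adjusted p = 0.00227). *Pdk1*, known as a target of hypoxia-inducible factor, was at 64.0, 56.4 and 75.4 CPM and at 49.6, 43.2 and 45.8 CPM (log2 fold change -0.50, standard error 0.133, adjusted p = 0.0385). *Pdk4*, the kinase induced by fasting and fatty acids, was at 437, 409 and 358 CPM in L1L2-FF and at 131, 296 and 341 CPM in libraries labelled L1L2-AKO. These libraries did not overlap, yet L1L2-AKO replicate 1 stood well below the other two and the test was not passed (log2 fold change -0.65, adjusted p = 0.207). *Pdk4* was the most abundant of the 3 kinases per length in every library, at 59.5% to 77.5% of their sum.

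*Pcx*, pyruvate carboxylase, was the third most abundant gene of the set per length in L1L2-FF, at a mean of 705 TPM, and was at 355 TPM in libraries labelled L1L2-AKO. In CPM it was at 1311, 629.6 and 1579 in L1L2-FF and at 683, 389.9 and 567 in libraries labelled L1L2-AKO. L1L2-FF replicate 2 lay below L1L2-AKO replicate 1, and the difference did not pass the test (log2 fold change -1.10, standard error 0.347, adjusted p = 0.0661). Among the other tests and filters, DESeq2's Wald test (adjusted p = 0.00655) and a fit with no filter on low counts (adjusted p = 0.035) placed it past the threshold.

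No gene of the pentose phosphate pathway passed the test, yet its first enzyme and its transketolase had the log2 fold changes furthest from 0, in opposite directions. *G6pdx*, glucose phosphate dehydrogenase, which makes the pathway's first NADPH (chrX:74409483-74429194, minus strand), was at 163, 113 and 243 CPM in L1L2-FF and at 324, 261 and 360.4 CPM in libraries labelled L1L2-AKO. It was the gene of the set whose libraries were all higher in libraries labelled L1L2-AKO (log2 fold change 0.87, standard error 0.267, adjusted p = 0.0618). Among the other scalings, tests, filters and omitted libraries, it passed with library size alone, in DESeq2's Wald test, with no filter on low counts and without L1L2-FF replicate 3 (adjusted p between 0.0109 and 0.0414). *Ikbkg* overlaps exons of *G6pdx* on the other strand and shares 16.9% of its 50-base stretches, and the strand setting of the counting is not given in the sources used here.

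*Tkt*, transketolase of the sugar-interconverting branch, was at 589, 319 and 835 CPM in L1L2-FF and at 311, 265 and 261 CPM in libraries labelled L1L2-AKO, without overlap (log2 fold change -1.06, standard error 0.309, adjusted p = 0.0525). *Taldo1*, transaldolase of the same branch, was at 362, 216 and 480.4 CPM and at 231, 199 and 210.2 CPM (log2 fold change -0.73, adjusted p = 0.0992). *Pgd*, the second NADPH-forming enzyme, was at 207 to 653 CPM and 303 to 413 CPM (log2 fold change -0.18, adjusted p = 0.789). *Pgls*, the lactonase between both dehydrogenases, and *Rpia*, ribose phosphate isomerase, had log2 fold changes of -0.13 and 0.06.

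The spread among the L1L2-FF libraries was wider for these genes than for most of the table. The highest L1L2-FF library was a median of 1.80 times the lowest over the 37 genes, against 1.37 times over all tested genes, whereas the same ratio in libraries labelled L1L2-AKO was 1.33 against 1.28. In 26 of the 37 genes (70.3%) the L1L2-FF libraries stood in the order replicate 3, replicate 1, replicate 2 from high to low, an order found in 25.5% of all tested genes. Replicate 2 was the lowest for 28 genes and replicate 3 the highest for 30. The ratio of replicate 3 to replicate 2 was 3.45 for *Aldoa*, 3.16 for *Pgd*, 2.62 for *Ldha*, *Tpi1* and *Tkt* and 2.51 for *Pcx*, but 1.14 for *Pfkfb3*, 1.05 for *Pfkm* and 0.782 for *Pdk2*. The summed level of the 37 genes was 10525, 6770 and 13899 CPM in L1L2-FF replicates 1 to 3, against 8344, 6831 and 8019 CPM in libraries labelled L1L2-AKO, so replicate 2 of L1L2-FF was the lowest of all 6. The summed level of the 104 other pathway genes described below stood in the same order, at 12978, 11244 and 15175 CPM in L1L2-FF replicates 1 to 3. The sums of some lists within them, such as gluconeogenesis, did not, and the order was not counted gene by gene there. The second principal component of all genes, with 17.2% of the variance, also set L1L2-FF replicate 2 apart from replicate 3. Markers of proliferating cells summed to 619, 224 and 659 CPM and those of Schwann cells to 864, 1800 and 1357 CPM in L1L2-FF replicates 1 to 3, and their part in the spread was not tested.

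**Figure D4:**
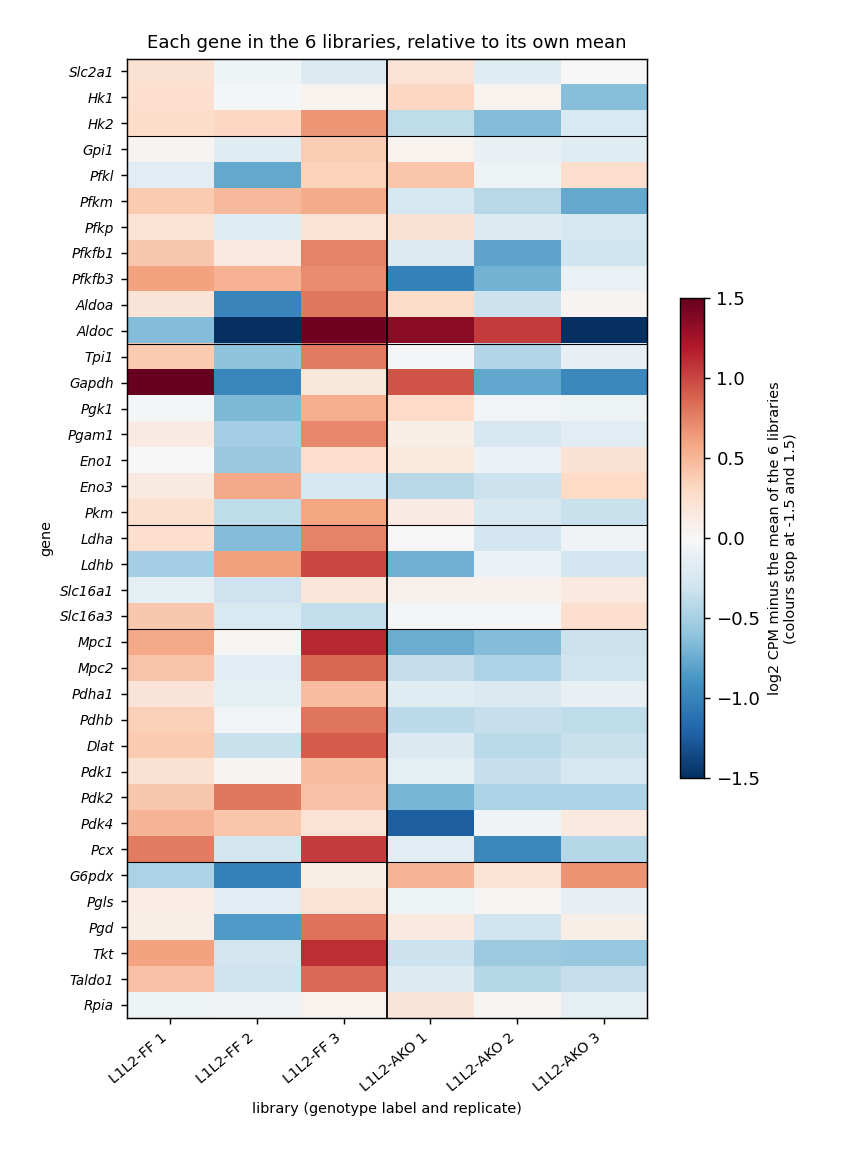
Log2 CPM of each gene (rows) in each library (columns) minus the gene's mean over the 6 libraries, where red is above and blue below that mean. The L1L2-FF replicate 3 column is the highest of its genotype for 30 of 37 genes and the replicate 2 column the lowest for 28.

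The number of genes called depended on which library was left out, in the set and over the whole table. With all 6 libraries, 2580 of 15674 tested genes were called. Each fit that left out 1 library tested 15987 to 16104 genes. Leaving out L1L2-FF replicates 1, 2 and 3 gave 1290, 2845 and 2283 calls over the table. Leaving out L1L2-AKO replicates 1, 2 and 3 gave 2076, 1281 and 1374. The following counts are those of the set. Without L1L2-FF replicate 2, 15 of the 37 genes fell, the additional ones being *Tpi1*, *Pdha1*, *Dlat*, *Pcx*, *Tkt* and *Taldo1*. Without L1L2-FF replicate 3, 5 fell and *G6pdx* rose. Without L1L2-FF replicate 1, 5 fell, with *Ldhb* among them. The counts were 5, 3 and 5, all lower, without L1L2-AKO replicates 1, 2 and 3. *Hk2*, *Pfkm* and *Pdk2* were called in each of these 6 fits and under all 11 other settings. *Pfkfb3* was lost in 1 of the 6 fits, without L1L2-AKO replicate 2 (adjusted p = 0.0603). *Mpc1* kept its call in 3 of the 6, *Pfkfb1* in 2, and *Mpc2*, *Pdhb* and *Pdk1* in 1, the fit without L1L2-FF replicate 2.

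**Figure D5:**
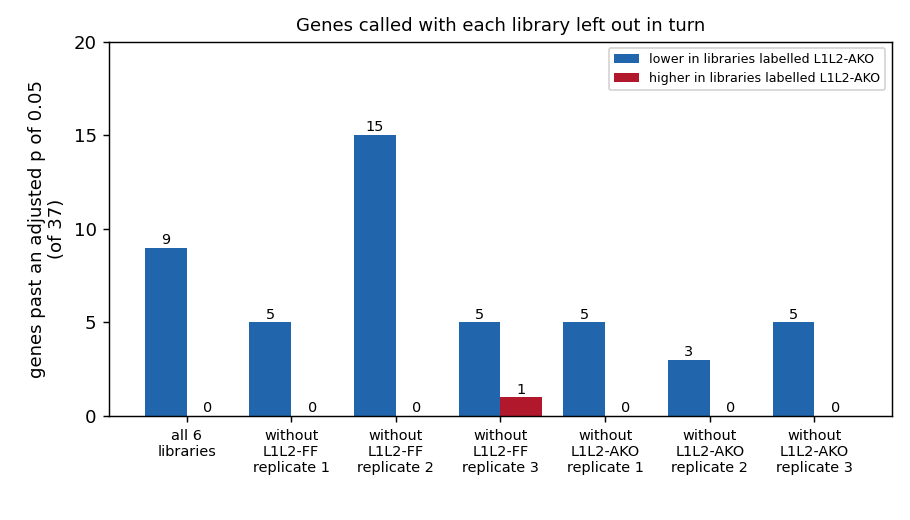
Number of the 37 genes past an adjusted p-value of 0.05 (y axis) that were lower (blue) or higher (red) in libraries labelled L1L2-AKO, with all 6 libraries or with 1 of them left out (x axis). The count of lower genes ran from 3 without L1L2-AKO replicate 2 to 15 without L1L2-FF replicate 2, and 1 gene was higher without L1L2-FF replicate 3. Over the whole table, 1281 genes were called without L1L2-AKO replicate 2 and 2845 without L1L2-FF replicate 2.

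Genes that share these pathways but lie outside the set were read from the same test. Of 104 such genes, 97 had enough counts, 12 rose (12.4%) and 16 fell (16.5%), where 9.28% of all tested genes rose and 7.18% fell. Of these 28 calls, 13 were present in all 6 fits that left out 1 library (5 of the 12 higher and 8 of the 16 lower), and 13 in 3 of the 6 fits or fewer. The insulin-responsive glucose transporter gene *Slc2a4* (GLUT4) fell from 213, 193 and 281 CPM in L1L2-FF to 81.0, 49.8 and 64.6 CPM in libraries labelled L1L2-AKO (log2 fold change -1.81, adjusted p = 0.00151). *Pck1*, which makes the glycerol backbone from pyruvate in fat, fell from 1954, 2198 and 1517 CPM to 366, 593 and 828 CPM (log2 fold change -1.67, adjusted p = 0.00878). In the glycogen list 4 of 16 genes fell: *Gys2*, a glycogen synthase (3.00, 4.05 and 24.6 CPM in L1L2-FF and 1.63, 0.952 and 0.873 CPM under the deletion label, log2 fold change -3.18, adjusted p = 0.0348), *Ppp1r3c*, which brings a phosphatase to glycogen (log2 fold change -2.01), and the phosphorylases *Pygl* (log2 fold change -1.44) and *Pygb*. For *Gys2* the L1L2-FF level rested mainly on replicate 3, without which the log2 fold change was -1.61 and still past the threshold (adjusted p = 0.0317), and the call was lost without any 1 of the 3 libraries labelled L1L2-AKO (adjusted p = 0.064 to 0.126). That of *Pygl* was lost without L1L2-FF replicate 1 or 3 or L1L2-AKO replicate 2 or 3 (largest adjusted p = 0.0918), while *Slc2a4*, *Pck1*, *Ppp1r3c* and *Pygb* were called in all 6 fits.

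Other genes moved up. *H6pd*, which makes NADPH inside the endoplasmic reticulum by the same first reactions as the cytosolic pathway, rose from 109, 214 and 95.1 CPM to 271, 405 and 521 CPM (log2 fold change 1.52, adjusted p = 0.0225), in the direction in which *G6pdx* lay. *Me3*, a mitochondrial malic enzyme, rose by 2.07 on the log2 scale from under 1 CPM. Both calls were present in 2 of the 6 fits, without L1L2-FF replicate 2 and without L1L2-AKO replicate 1, and were lost in the others (largest adjusted p = 0.0914 for *H6pd* and 0.101 for *Me3*). The pyruvate dehydrogenase kinase gene *Pdk3*, not counted in the set, rose while *Pdk1* and *Pdk2* fell, and the phosphatase gene *Pdp1*, whose product reactivates the complex, also rose. The call of *Pdp1* was present in all 6 fits, but that of *Pdk3* was lost without L1L2-FF replicate 1 or any 1 of the libraries labelled L1L2-AKO (largest adjusted p = 0.0878). *Hk3*, the hexokinase of blood cells, rose, and its call was lost without L1L2-FF replicate 1 (adjusted p = 0.0525). In the same libraries 14 of 15 macrophage markers were higher, where 9.28% of all tested genes were. A link between *Hk3* and these markers was not tested. *Tigar*, a phosphatase that brakes glycolysis, *Emb*, a partner of lactate transporters, and *Got1*, an aminotransferase of the NADH shuttle, rose, and *Ldhd*, *Slc16a7*, *Shpk*, *Prps1* and *Gpd1* fell. Of these, *Emb*, *Slc16a7*, *Shpk* and *Prps1* were called in all 6 fits. *Tigar* was called in 1, without L1L2-FF replicate 3 (largest adjusted p = 0.172). *Got1* was lost without any 1 of the libraries labelled L1L2-AKO (largest adjusted p = 0.0551), *Ldhd* without L1L2-FF replicate 1 or L1L2-AKO replicate 1 or 2 (0.0833) and *Gpd1* without L1L2-FF replicate 1 or 3 or L1L2-AKO replicate 2 or 3 (0.134).

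Genes induced by low oxygen outside glycolysis went both ways, with 3 of 14 up and 3 down, where 9.28% of all tested genes were higher and 7.18% lower. *Adm*, the peptide adrenomedullin, rose from 8.73 to 12.7 CPM in L1L2-FF to 44.3, 116 and 119 CPM (log2 fold change 3.08, adjusted p = 0.00171). The collagen prolyl hydroxylases *P4ha2* and *P4ha1* rose by 2.29 and 1.48 on the log2 scale. *Egln3* (log2 fold change -2.57) and *Egln1*, the oxygen sensors that mark hypoxia-inducible factor for breakdown, fell, as did the mitophagy receptor gene *Bnip3* (log2 fold change -1.35). Among the 13 transcription factors listed for these pathways, *Hif1a* rose, and *Mlxipl*, which encodes the glucose sensor ChREBP, and *Srebf1*, which drives fat synthesis, fell. *Adm*, *P4ha1*, *P4ha2* and *Bnip3* were called in all 6 fits that left out 1 library. *Egln3* was lost without L1L2-AKO replicate 3 (adjusted p = 0.0575), and *Egln1* was called in 1 fit, without L1L2-FF replicate 2 (largest adjusted p = 0.107). *Hif1a* was lost without L1L2-FF replicate 1 or L1L2-AKO replicate 2 or 3 (largest adjusted p = 0.0854), *Mlxipl* without L1L2-FF replicate 2 or 3 or L1L2-AKO replicate 2 or 3 (0.125), and *Srebf1* without any 1 of the libraries labelled L1L2-AKO (0.113).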

How the data were processed

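The study's authors sequenced poly(A) RNA as paired ends, aligned the reads to mm10 with HISAT2 2.1.0 then used SAMtools and StringTie 1.3.5. They deposited raw counts, 1 whole number per symbol and library with no scaling, with 30548473 to 32107917 counts per library. The annotation, the counting program and its treatment of strand and of multiply mapping reads are not given in the sources used here.

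Counts as deposited were filtered with filterByExpr (minimum count 10, minimum total 15), scaled by TMM and compared with the quasi-likelihood test of edgeR 4.0.16 (R 4.3.3), genotype only, with Benjamini-Hochberg adjustment over 15674 genes. A standard error is the size of the log2 fold change over the root of the F statistic. A permutation of 3 against 3 libraries cannot give a two-sided p under 0.1. TPM used the union of exons in GENCODE M21, in which 36961 rows matched by symbol, 385 by synonym and 38 not at all. Shared sequence was counted in stretches of 50 bases. Promoter windows came from RefSeq. Python 3.11.15 with pandas 2.3.3 and matplotlib 3.10.9 made tables and plots.

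The 37 genes were fixed by symbol, and they, the other pathway genes and the marker lists were chosen with earlier results of these data known. Named genes were all 37, any other pathway gene past the threshold (the 12 with the largest absolute log2 fold change with values), *Lats1*, *Lats2* and rows sharing sequence. Alternatives were other scalings, DESeq2 1.42.0, limma-voom (limma 3.58.1), edgeR's robust setting, other filters, the replicate block, rows that share sequence added to their gene, the longest transcript as gene length, and each library left out in turn. The tests were checked on simulated counts.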

Additional observations from a re-analysis of the deposited data

How the results depend on the processing

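Leaving out each library in turn gave 3 to 15 of the 37 genes past the threshold, 3 to 15 lower and 0 to 1 higher, 15 to 38 other pathway genes and 1281 to 2845 genes of the table, and a log2 fold change of *Lats2* of 0.55 to 0.78. The number higher was 1, *G6pdx*, with library size alone, with DESeq2's Wald test, with no filter on low counts and with the replicate block. Outside the omitted libraries, 8 to 13 of the 37 were called: *Mpc2* was lost with DESeq2 size factors and limma-voom, and *Tkt*, *Pcx*, *Taldo1* and *G6pdx* were gained in some. With the replicate block 11 were called, *Pcx* (adjusted p = 0.0189) and *G6pdx* (adjusted p = 0.0144) being gained, and it ended no call. The sources used here name no pairing of the libraries by replicate number. Same-numbered deviations correlated at 0.19, 0.26 and -0.05, and not every library correlated best with its own number. With 3 libraries per genotype these correlations cannot settle whether the numbers are pairs. The median log2 fold change of the set lay between -0.56 and -0.17 over the omitted libraries and between -0.37 and -0.30 otherwise. Of 628 member values under the alternatives, 564 kept direction and side of the threshold, 25 lost a call, 20 gained one and 19 changed sign, all 19 in genes that did not pass. Sign changes were -0.012 for *Slc2a1* with upper-quartile normalization and 0.0037 for *Aldoa* with the replicate block. Over the omitted libraries the ranges were -0.083 to 0.15 for *Slc2a1*, -0.34 to 0.10 for *Hk1*, -0.50 to 0.30 for *Aldoa*, -0.011 to 1.81 for *Aldoc*, -1.51 to 0.31 for *Gapdh*, -0.22 to 0.38 for *Pgk1*, -0.55 to 0.058 for *Pgam1*, -0.028 to 0.36 for *Eno1*, -0.63 to 0.018 for *Ldha*, -0.054 to 0.36 for *Slc16a3*, -0.51 to 0.29 for *Pgd* and -0.032 to 0.14 for *Rpia*. The causes were not tested. *Aldoc* could not be tested with at least 10 counts in every library.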

Other observations

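Markers of other cells that could float with adipocytes were read in the same test, as lists chosen with these data known. Of all tested genes, 7.18% were lower and 9.28% higher, so 1 gene called in a list of this size is near that share. Of the 14 markers of mature adipocytes 6 fell, and of the 9 tested markers of brown and beige adipocytes 2 fell, with a summed level of 374 to 732 CPM in L1L2-FF and 279 to 424 CPM in libraries labelled L1L2-AKO. Of the 9 Schwann cell markers 5 fell and 1 rose, and of the 9 mural cell markers 2 fell and 1 rose. One gene fell among the 10 endothelial markers and one among the 10 markers of progenitors and fibroblasts. None of the 12 proliferation markers, 10 lymphocyte markers or 8 tested markers of neutrophils and mast cells passed in edgeR (0, 2 and 2 at an unadjusted p under 0.05), while 1 of 9 tested skeletal muscle markers and 1 of 8 red cell markers rose. Their part in the results on glucose metabolism was not tested.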
